A study of Mus musculus with 3 samples.

Results

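Mitochondrial carriers of the Slc25 family, taken as all gene symbols that begin with Slc25a and a number together with Ucp1, Ucp2 and Ucp3, were described in the distal colon of wild-type mice. The rule found 50 genes of the 24346 gene symbols listed, 47 Slc25a genes and 3 Ucp genes, and it used names only. The series profiled polyadenylated RNA from mice 8 weeks of age at steady state, with the genotype label WT. JAX stands in the sample titles, and no strain name is given beyond that. The series holds 3 labelled libraries, replicates 1 to 3, which form 1 group, so there is no contrast between conditions. Nothing in the labels says whether the replicates came from separate animals, so p-values measure only the spread between these files, which may be technical. The unit is FPKM, fragments scaled to transcript length and to the number of mapped fragments. Isoforms were summed per gene, and each value is the mean over the 3 files ± their SD. The spread between the files was no larger than that of sampling, for which reason they count as a single sample here, and the SD is that between files. Whether it holds any spread between animals is not known. Mapped fragments recovered from the authors' confidence bounds were 3.78e+06, 3.79e+06 and 1.24e+06 in replicates 1, 2 and 3, so replicate 3 is the least precise.

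Carriers of this family sit in the inner mitochondrial membrane, apart from a few in peroxisomes or the outer membrane, and exchange nucleotides, phosphate, acids, amino acids and cofactors between the cytosol and the matrix. ADP/ATP carriers and the phosphate carrier supply ATP synthase with its substrates, and the carnitine-acylcarnitine carrier brings fatty acyl groups to the matrix for oxidation. Uncoupling proteins belong to the same family, and Ucp1 lets protons back through the membrane of brown fat mitochondria to make heat. Colonocytes draw much of their energy from the oxidation of short-chain fatty acids made by bacteria.

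The 3 ADP/ATP carrier genes are near-relatives whose reads must be told apart by sequence, so the coding stretch around their shared signature, a run of arginine codons followed by methionine codons, is shown. Sequences are from GENCODE M21 transcripts on GRCm38, 5′ to 3′. In Slc25a5 (chrX:36797825-36797872, plus strand, exon 3 of 4) the capitals mark the signature codons. In Slc25a4 (chr8:46208402-46208449, minus strand, exon 3 of 4) and Slc25a31 (chr3:40722716-40724879, plus strand, an interval that holds an intron) they mark the bases that differ from Slc25a5.
Slc25a5: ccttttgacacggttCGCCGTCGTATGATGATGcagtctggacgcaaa
Slc25a4: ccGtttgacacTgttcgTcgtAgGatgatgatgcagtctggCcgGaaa
Slc25a31: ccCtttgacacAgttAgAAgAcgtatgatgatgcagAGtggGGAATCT
Over these 48 bases Slc25a4 differed from Slc25a5 at 7 and Slc25a31 at 15. Across the aligned coding sequence Slc25a5 and Slc25a4 were 77.5% identical, with no identical run longer than 20 bases. Slc25a5 and Slc25a31 were 66.2% identical, with a longest run of 21 bases.

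Most of the family was detected, and a few genes held most of the signal. Of the 50 carriers, 37 (74%) stood at 1 FPKM or more in every file, against 48.5% of all genes listed. The mean was 10 FPKM or more in 19 carriers (38%), against 23.3% of all genes. In 3 carriers (6%) it was at least 100 FPKM, against 2.59%. Under 1 FPKM in every file were 11 carriers (22%), against 45.0% of all genes, and 4 of them were listed at 0 in every file (8%), against 29.9%. The median carrier had 5.48 FPKM and the median gene 1.25 FPKM. Among genes at 1 FPKM or more in every file, the medians were 11.1 FPKM for carriers and 9.43 FPKM for all genes. Together the carriers held 0.510% ± 0.00269 of the summed FPKM. Slc25a5, Slc25a3 and Ucp2 made 71.9% ± 0.628 of that and the other 47 genes 28.1%.

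**Figure D1:**
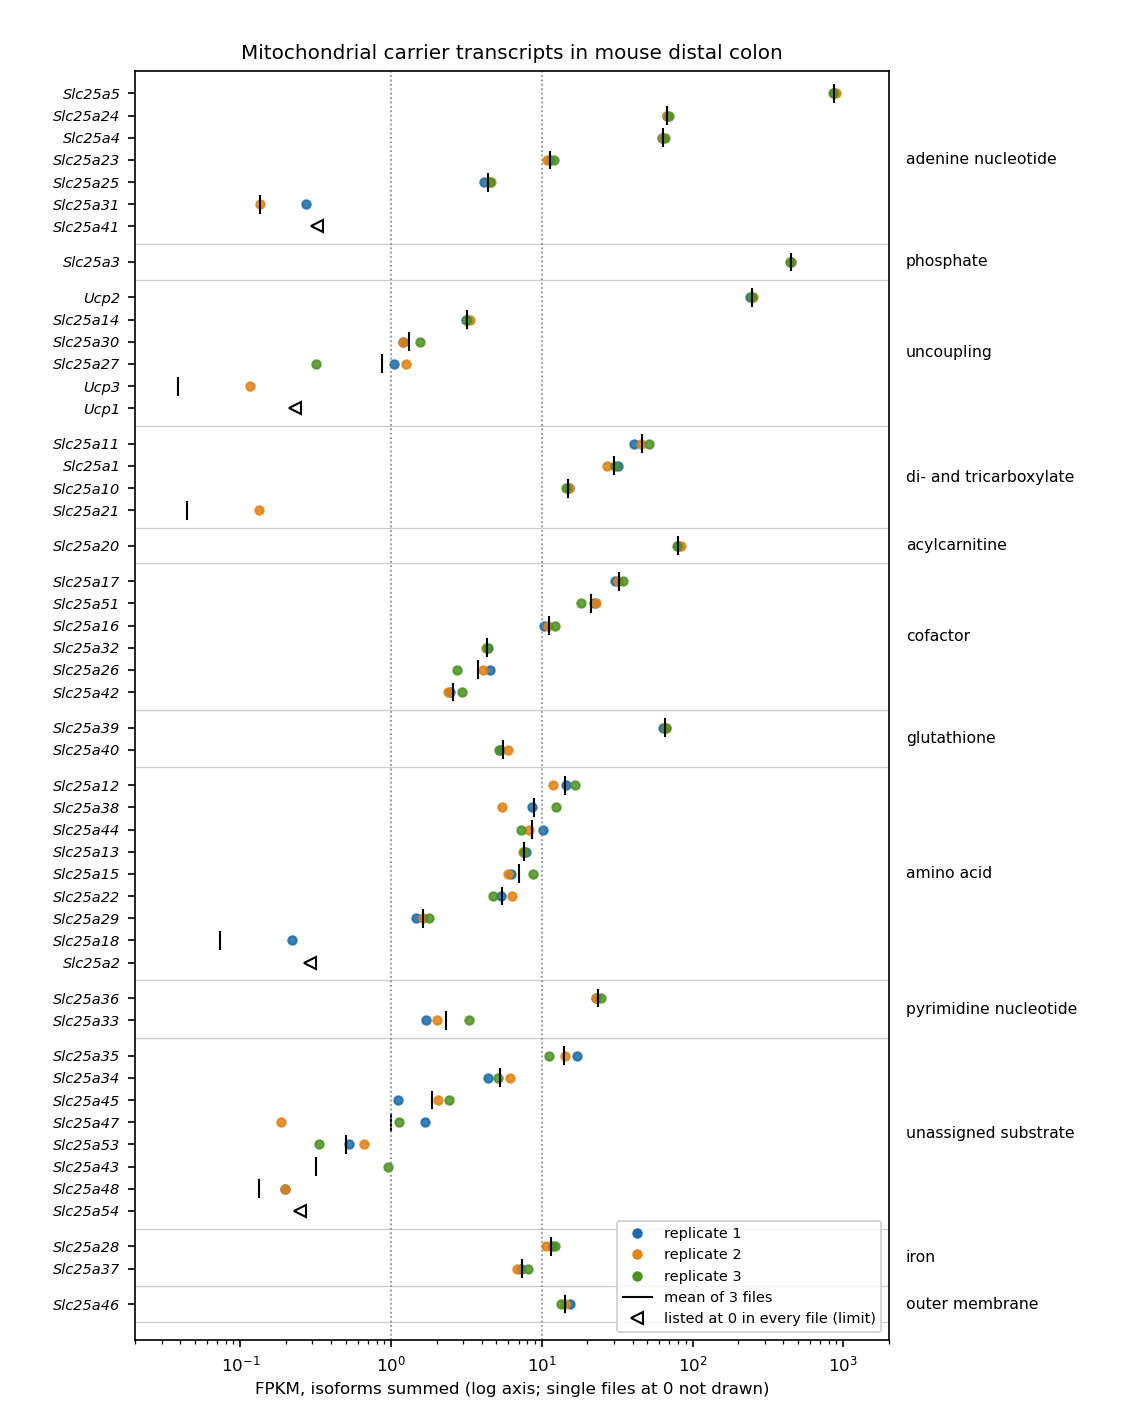
FPKM of 49 of the 50 carriers in the 3 files (points, coloured by replicate) with the mean (bar), on a log axis, by substrate group; open triangles give the limit for the 4 genes listed at 0 in every file. The 3 highest genes, Slc25a5, Slc25a3 and Ucp2, stand above 100 FPKM in every file, and the points of a gene spread more the lower its level.

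Adenine nucleotide carriers formed the largest group, with 47.0%, 47.1% and 46.3% of the summed carrier FPKM in replicates 1, 2 and 3. Slc25a5, the widely expressed ADP/ATP carrier (chromosome X, 36795597 to 36798808), had 873, 890.1 and 854 FPKM in the 3 files, a mean of 872 ± 18.1 FPKM that placed it at rank 71 of all genes. Its paralogue Slc25a4, the form that prevails in heart and skeletal muscle (chromosome 8, 46207341 to 46211009), had 62.5, 63.7 and 65.7 FPKM. Slc25a5 thus exceeded Slc25a4 in every file, with a ratio of means of 13.6 (95% counting interval 12.6 to 15.1). Slc25a31, the form of male germ cells, had 0.272, 0.136 and 0 FPKM, which amounts to 3 fragments in all. The ratio of Slc25a4 to Slc25a31 was 471 (95% counting interval 123 to 1770.3), and it was 953 without replicate 1 and 309.9 without replicate 3. The testis genes Prm1, Prm2, Tnp1, Ldhc and Pgk2 were all listed at 0. Of skeletal muscle genes, 2 of 6 stood at 1 FPKM or more in every file, Ckm at 9.40 FPKM and Acta1 at 4.67 FPKM, while Myh4 was listed at 0, and their summed level was 11.6 to 18.7 FPKM. Smooth muscle genes were high, 5 of 5, with a summed level of 2353 to 2444 FPKM, beside 4258 to 4311 FPKM for 5 epithelial genes. The part of these cell types in the level of Slc25a4 or Slc25a5 was not tested, and in a whole tissue fewer cells of a type and less RNA per cell cannot be told apart.

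Calcium-regulated ATP-Mg/phosphate carriers, which load or unload the adenine nucleotide pool of the matrix, were led by Slc25a24. It had 67.3, 67.3 and 69.4 FPKM (chromosome 3, 109123149 to 109168409), about as much as Slc25a4. The files of the pair did not overlap, but the authors' 95% bounds in replicate 1 did. These were 62.5 to 72.0 FPKM for Slc25a24 and 54.0 to 71.1 FPKM for Slc25a4. Slc25a23 followed at 11.2, 10.7 and 12.1 FPKM and Slc25a25 at 4.13, 4.56 and 4.54 FPKM. Slc25a24 stood 5.99 (95% counting interval 5.38 to 6.86) times as high as Slc25a23 and 15.4 (95% counting interval 12.7 to 19.0) times as high as Slc25a25. Slc25a41, a short relative without the calcium-binding part, had 0 FPKM in every file and a limit of 0.321 FPKM, the FPKM equal to 3 fragments summed over the files. Limits and intervals cover counting error only. For genes with several isoforms the isoforms' variances were added.

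Slc25a3, the carrier that brings phosphate into the matrix (chromosome 10, 91116578 to 91123963), was the second highest gene of the family at 448, 451 and 446 FPKM. It held 20.6% ± 0.0789 of the summed carrier FPKM as the only gene of its group. The files list 1 isoform of Slc25a3, so the alternative exons known to distinguish muscle from other tissues are not analysed here.

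The uncoupling group was Ucp2 with little else. Ucp2, found in immune and many other cells and in the gut (chromosome 7, 100493358 to 100499629), had 241, 252 and 249 FPKM. Ucp1, the heat-making protein of brown fat, had 0 FPKM in every file (limit 0.230 FPKM), so that Ucp2 was at least 1076-fold higher. Ucp3, the muscle form, had 0, 0.116 and 0 FPKM, a single fragment, which gives a ratio of Ucp2 to Ucp3 of 6416 (95% counting interval 891 to 196400.0). This ratio was 4266 without replicate 3 and has no value without replicate 2, which holds the fragment. Relatives named for the brain or kidney stood lower: Slc25a14 had 3.13, 3.33 and 3.17 FPKM, Slc25a30 1.20, 1.20 and 1.56 FPKM and Slc25a27 1.05, 1.26 and 0.319 FPKM. The ratio of Slc25a14 to Slc25a27 was 3.67 (95% counting interval 1.68 to 5.81). Files 1 and 2 put Slc25a27 above 1 FPKM and file 3 well below it. Of 5 brown fat genes, 3 were under 1 FPKM in every file (Cidea 0.352 FPKM, Elovl3 0.0514 FPKM, Dio2 0.0935 FPKM). Cox8b had 5.27, 1.33 and 0 FPKM, and the coactivator Ppargc1a, which many tissues express, 11.3 FPKM, and the summed level of the 5 was 10.2 to 17.3 FPKM. White fat genes were low, with 0 of 5 at 1 FPKM or more in every file, Lep listed at 0 and a summed level of 0.752 to 1.92 FPKM. Neuron genes, beside the carriers named for the brain, were at 1 FPKM or more in 5 of 5, with a summed level of 66.8 to 67.9 FPKM, and their part in those levels was not tested. Macrophage genes, from a cell type that expresses Ucp2, were at 1 FPKM or more in 5 of 5, with a summed level of 194 to 208 FPKM, and their part in the level of Ucp2 was not tested.

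**Figure D2:**
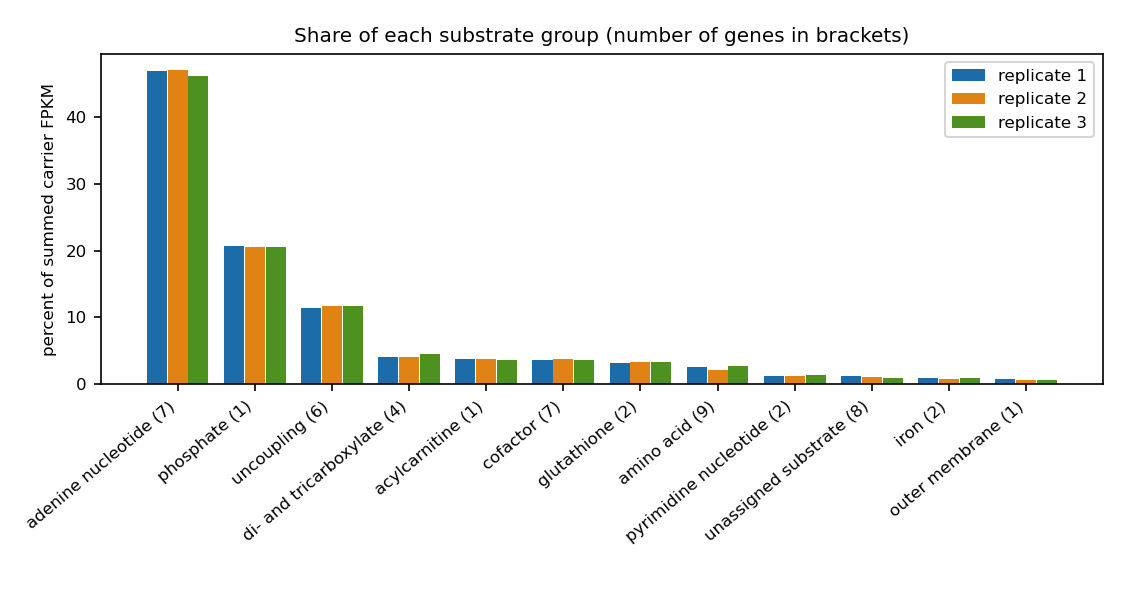
Percent of the summed carrier FPKM held by each of 12 substrate groups (x axis, number of genes in brackets) in each file (bars). The adenine nucleotide group holds 46.3% to 47.1%, phosphate 20.5% to 20.6% and uncoupling 11.4% to 11.7%; no other group reaches 5%.

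Carriers of di- and tricarboxylates link the citrate cycle to the cytosol, and held 4.17% ± 0.226 of the summed carrier FPKM. The dicarboxylate carrier Slc25a10 had 15.2, 15.2 and 14.5 FPKM, and Slc25a11, the oxoglutarate-malate carrier of the malate-aspartate shuttle, had 41.1, 45.8 and 51.2 FPKM. Slc25a1, which exports citrate for lipid synthesis, lay between them in every file at 31.9, 27.2 and 30.8 FPKM. The ratio of Slc25a10 to Slc25a11 was 0.325 (95% counting interval 0.301 to 0.381). Slc25a21, the oxodicarboxylate carrier of lysine and tryptophan breakdown, had 0, 0.132 and 0 FPKM.

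Slc25a20, the carnitine-acylcarnitine carrier (chromosome 9, 108662098 to 108684641), was the fourth highest gene at 80.2, 83.1 and 78.4 FPKM, and held 3.70% ± 0.0861 by itself. That share overlapped that of the 7 cofactor carriers, 3.69% ± 0.0432, across the files. Ordered by share, the 12 groups overlapped a neighbour only here and between the pyrimidine nucleotide carriers (1.18% ± 0.0885) and the genes with no substrate assigned (1.06% ± 0.0907).

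All 7 cofactor carriers stood at 1 FPKM or more in every file. The highest was Slc25a17, a peroxisomal carrier of coenzyme A and other nucleotide cofactors, at 30.8, 32.0 and 34.8 FPKM. Slc25a51, which brings NAD+ into the matrix, had 22.3, 22.7 and 18.3 FPKM. Both genes linked to coenzyme A entry were lower, Slc25a42 at 2.46, 2.37 and 2.94 FPKM and Slc25a16 at 10.3, 10.9 and 12.2 FPKM, a ratio of Slc25a42 to Slc25a16 of 0.233 (95% counting interval 0.173 to 0.302). Slc25a32, for folate or FAD, had 4.33 ± 0.0491 FPKM and Slc25a26, for S-adenosylmethionine, 3.78 ± 0.920 FPKM.

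Glutathione carriers were unequal: Slc25a39 had 63.5, 66.3 and 66.8 FPKM and its paralogue Slc25a40 5.28, 5.99 and 5.20 FPKM, a ratio of 11.9 (95% counting interval 9.54 to 14.3). Iron carriers, the mitoferrins, were nearer each other. Slc25a28, the form of most tissues, had 11.8, 10.6 and 12.3 FPKM, and Slc25a37, known for red cell precursors, 7.28, 6.81 and 8.04 FPKM. Their files did not overlap, and the ratio was 1.57 (95% counting interval 1.27 to 1.96). Of 5 erythroid genes read, the near-identical pair Hba-a1 and Hba-a2 made most of a summed level of 68.9 to 75.9 FPKM, while Alas2 (0.348 FPKM) and Hbb-bs (0.0501 FPKM) were low. Hbb-bt, also on the erythroid list, is not analysed here, so the Hbb genes are read from Hbb-bs alone. The part of red cell precursors in the level of Slc25a37 was not tested. Pyrimidine nucleotide carriers were led by Slc25a36 at 22.9, 22.9 and 24.7 FPKM, with Slc25a33 at 1.70, 2.01 and 3.28 FPKM and a ratio of 10.1 (95% counting interval 7.86 to 16.8).

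The 9 amino acid carriers were a large group by number and a small one by level, with 2.46% ± 0.301 of the summed carrier FPKM. Slc25a13, the calcium-regulated aspartate-glutamate carrier that prevails in liver, had 7.87, 7.51 and 7.61 FPKM. Its paralogue Slc25a12 was the highest of the group on average, at 14.6, 11.9 and 16.6 FPKM. Slc25a13 stood below Slc25a12 in every file, with a ratio of 0.534 (95% counting interval 0.454 to 0.690), or 0.329 when only the highest isoform of each gene was read. Slc25a38, which brings glycine in for heme synthesis, had 8.58, 5.41 and 12.5 FPKM, the widest spread relative to its mean among carriers with a mean above 5 FPKM. Slc25a44, a branched-chain amino acid carrier, had 10.2, 8.26 and 7.32 FPKM. Slc25a15, the ornithine carrier, had 6.27, 5.94 and 8.79 FPKM, and its paralogue Slc25a2 was listed at 0 (limit 0.288 FPKM), so that Slc25a15 was at least 24.3-fold higher. Of the glutamate carriers, Slc25a22 had 5.33, 6.32 and 4.73 FPKM and Slc25a18 0.220, 0 and 0 FPKM, 1 fragment in all, a ratio of 74.6 (95% counting interval 10.6 to 2413). This ratio was 45.8 without replicate 2 and has no value without replicate 1, which holds the fragment. Slc25a29, a carrier of basic amino acids, had 1.47, 1.62 and 1.79 FPKM.

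Slc25a46, a protein of the outer membrane that acts in mitochondrial dynamics, had 15.3, 14.3 and 13.4 FPKM. Of the 8 genes with no substrate assigned here, Slc25a35 was highest at 17.0, 14.1 and 11.1 FPKM, above its paralogue Slc25a34 at 4.41, 6.19 and 5.11 FPKM in every file, with a ratio of 2.69 (95% counting interval 2.24 to 3.59). This ratio was 3.86, 2.28 and 2.18 in the 3 files, and without replicate 1 it was 2.236, just below that interval. Slc25a45 had 1.86 ± 0.672 FPKM. Slc25a47, a gene of the liver, had 1.68, 0.187 and 1.14 FPKM. All 7 liver marker genes stood at 1 FPKM or more in every file, with a summed level of 297 to 319.9 FPKM led by Alb at 129 FPKM. The part of such RNA in the levels of Slc25a47 and Slc25a13 was not tested. Slc25a53, Slc25a43 and Slc25a48 had 0.505 ± 0.163 FPKM, 0.320 ± 0.554 FPKM and 0.132 ± 0.114 FPKM. Slc25a43 was listed at 0 in replicates 1 and 2. Slc25a54 had 0 FPKM in every file (limit 0.248 FPKM).

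**Figure D3:**
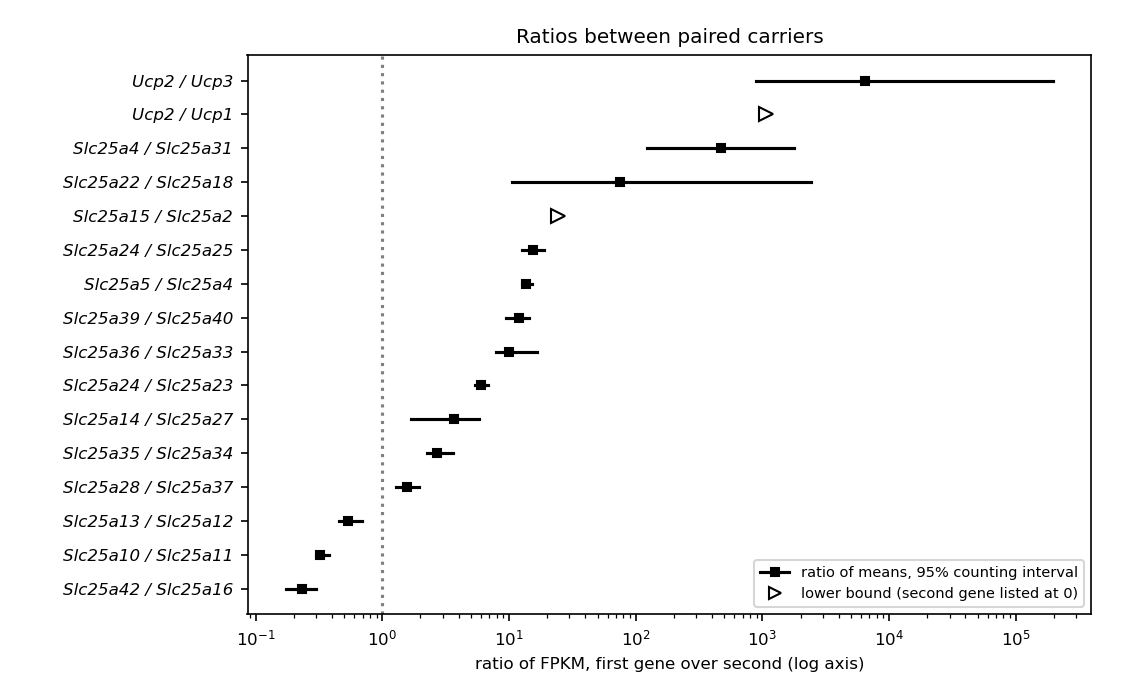
Ratio of FPKM between 16 pairs of related carriers (log axis) with 95% counting intervals; arrows are lower bounds where the second gene was listed at 0. Intervals of 13 pairs lie above 1 or are lower bounds above 1, and those of Slc25a13 over Slc25a12, Slc25a10 over Slc25a11 and Slc25a42 over Slc25a16 lie below it.

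Of neighbouring carriers, most differed widely. After the levels were seen, members less than 50000 bases apart were listed, which gave 5 pairs. Slc25a5 lies 18289 bases from Slc25a43 on chromosome X, Ucp2 6925 bases from Ucp3 on chromosome 7, Slc25a24 6566 bases from Slc25a54 on chromosome 3 and Slc25a23 2056 bases from Slc25a41 on chromosome 17. In each of these the first gene was above 10 FPKM in every file and the second under 1 FPKM in every file. The pair of Slc25a29 and Slc25a47 on chromosome 12, 15252 bases apart, was low in both (1.62 FPKM and 1.00 FPKM). 

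Promoter windows of 300 bases, 250 before to 50 after the start, were taken from RefSeq on GRCm38.p6 and matched 39 of the 50 carriers, 1 window a gene. Sequences run 5′ to 3′ on the gene's strand, with each CpG dinucleotide in capitals.
Slc25a3 (chr10:91123918-91124217, minus strand, 31 CpG): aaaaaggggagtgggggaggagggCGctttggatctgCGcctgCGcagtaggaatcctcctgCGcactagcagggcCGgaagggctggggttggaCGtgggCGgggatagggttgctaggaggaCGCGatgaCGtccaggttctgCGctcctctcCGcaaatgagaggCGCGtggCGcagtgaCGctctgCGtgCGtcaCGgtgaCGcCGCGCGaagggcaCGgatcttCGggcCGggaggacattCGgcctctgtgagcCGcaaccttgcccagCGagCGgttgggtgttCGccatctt
Ucp2 (chr7:100493108-100493407, plus strand, 21 CpG): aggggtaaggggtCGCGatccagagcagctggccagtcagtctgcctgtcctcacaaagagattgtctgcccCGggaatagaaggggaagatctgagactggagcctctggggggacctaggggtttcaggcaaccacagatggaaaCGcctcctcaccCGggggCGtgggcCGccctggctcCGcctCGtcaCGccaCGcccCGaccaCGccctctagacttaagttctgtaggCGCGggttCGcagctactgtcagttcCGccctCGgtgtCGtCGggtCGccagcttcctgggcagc
Ucp1 (chr8:83290098-83290397, plus strand, 15 CpG): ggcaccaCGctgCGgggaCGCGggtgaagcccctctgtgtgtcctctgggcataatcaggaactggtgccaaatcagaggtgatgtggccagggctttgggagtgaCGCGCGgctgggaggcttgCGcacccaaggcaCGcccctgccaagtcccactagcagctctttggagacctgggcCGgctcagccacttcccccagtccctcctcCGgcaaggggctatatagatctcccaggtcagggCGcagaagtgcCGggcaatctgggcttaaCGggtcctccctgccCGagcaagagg
Carriers at a mean of 10 FPKM or more had a median of 22.5 CpG per window (16 genes, range 12 to 45), those from 1 to under 10 FPKM 17 (14 genes, 1 to 47) and those under 1 FPKM 14 (9 genes, 4 to 22), while all 32851 windows had a median of 7. The ranges overlapped. The ETS factor motif CCGGAAG was found, on either strand, in 7 of 39 carrier windows (17.9%) and in 8.86% of all windows. The 7 were Slc25a3, Slc25a4, Slc25a17, Slc25a20, Slc25a25, Slc25a38 and Slc25a54, the last listed at 0 in every file. Slc25a5 and Ucp2 had no such match. The CCAAT motif was in 17 (43.6%), against 37.4%, and TATAAA in 1, that of Slc25a18 (2.56%), against 13.6%. The core of the NRF1 motif, GCGCA followed directly by its reverse complement, was in 0 carrier windows and in 0.971% of all windows. A match is a description of letters, and no match says only that these letters are not in the window.

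Several isoforms were listed for 10 carriers and 1 isoform for the other 40. Of 7 carriers with several isoforms and a mean of 1 FPKM or more, 3 had the same isoform at 50% or more of the gene's FPKM in every file, Slc25a13 and Slc25a25 among them, while 58.3% of 3858 such genes overall did. By the authors' 95% bounds only the leading isoform of Slc25a25 stood apart from its gene's other isoforms in every file. That isoform, NM_001290558, held 99.99%, 99.995% and 99.97% in the 3 files and has the shortest span of those listed for this gene (chromosome 2, 32414487 to 32424066). Both isoforms of Slc25a13 were detected, NM_001177572 at 67.6%, 66.9% and 50.1% and NM_015829 at the rest, and their listed lengths, 3119 and 3122 bases, differ by 3. Shares of Slc25a14, Slc25a22, Slc25a40 and Slc25a44 changed their order between files. For Slc25a22, NM_001177576 held 38.7%, 82.4% and 30.1%, and for Slc25a40, NM_001289595 held 99.996%, 99.98% and 48.7%.

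**Figure D4:**
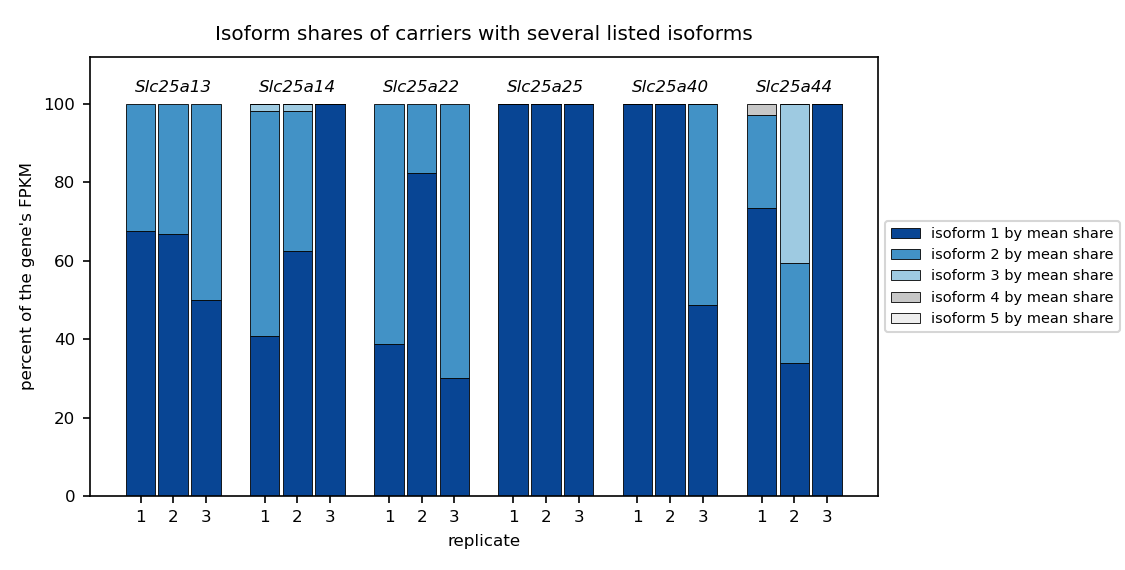
Percent of each gene's FPKM held by its isoforms (stacked, ordered by mean share) in replicates 1 to 3, for 6 of the 7 carriers with several listed isoforms and a mean of 1 FPKM or more. Slc25a25 is a single colour in every file, and the order of the isoforms changes between files in Slc25a14, Slc25a22, Slc25a40 and Slc25a44.

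Genes that work beside the carriers were read from 12 lists of 89 genes in all, of which 82 (92.1%) stood at 1 FPKM or more in every file, against 48.5% of all genes. The 15 ATP synthase genes had a median of 384 ± 13.1 FPKM, led by Atp5b (654 FPKM) and Atp5g3 (642 FPKM), and all stood below Slc25a5, while 11 of the 15 lay between Atp5c1 at 308 FPKM and Atp5k at 566 FPKM. The outer membrane list, made of Vdac1, Vdac2, Vdac3 and Tspo, had a median of 186 ± 6.02 FPKM, with Vdac2 at 223 FPKM and Vdac1 at 219 FPKM. The pyruvate carrier, which is not of this family, had Mpc1 at 125 FPKM and Mpc2 at 82.7 FPKM. Beside Slc25a20 the carnitine shuttle had Cpt1a at 36.2 FPKM and Cpt2 at 20.8 FPKM, both lower than the carrier, and 4 of 6 genes at 1 FPKM or more in every file. Its muscle form Cpt1b had 1.45, 0.00296 and 0.589 FPKM and its brain form Cpt1c 0.503, 1.51 and 2.14 FPKM.

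Malate-aspartate shuttle enzymes had a median of 87.1 ± 2.34 FPKM, with Mdh2 at 188 FPKM and Mdh1 at 134 FPKM, all 4 at 10 FPKM or more. Beside the citrate carrier, citrate synthase (Cs) stood at 232 FPKM and ATP citrate lyase (Acly) at 82.3 FPKM, and all 5 genes of the list reached 1 FPKM. Ornithine and glutamate enzymes divided: Oat, which makes glutamate semialdehyde from ornithine, stood at 114 FPKM and Glud1 at 60.6 FPKM, with 7 of 10 at 1 FPKM or more in every file, while Arg2 (0.636 FPKM) and Pycr1 (0.320 FPKM) were under it in every file. Of 14 heme and iron-sulfur genes, 12 reached 1 FPKM, led by the scaffold Iscu (54.2 FPKM) and Alas1 (23.8 FPKM). Alas2, the red cell form, had 0.348 FPKM, and the mitochondrial ferritin Ftmt had 0 FPKM in every file (limit 0.262 FPKM). All 7 glutathione genes reached 1 FPKM, with Gpx1 at 189 FPKM and Gpx4 at 81.7 FPKM.

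The machinery that imports carriers into the inner membrane had a median of 17.8 ± 0.528 FPKM over 11 genes, led by Tomm22 (95.7 FPKM) and Timm13 (22.9 FPKM), while the insertase Timm22 stood at 4.58 FPKM. Calcium uniporter genes had a median of 38.2 ± 2.05 FPKM over 4 of the 5 genes listed, led by Smdt1 (172 FPKM) and Mcu (41.1 FPKM). Regulators of mitochondrial biogenesis had a median of 8.72 ± 0.869 FPKM, led by Esrra (26.1 FPKM) and Gabpa (14.1 FPKM), with none of the 7 genes under 1 FPKM in any file.

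**Figure D5:**
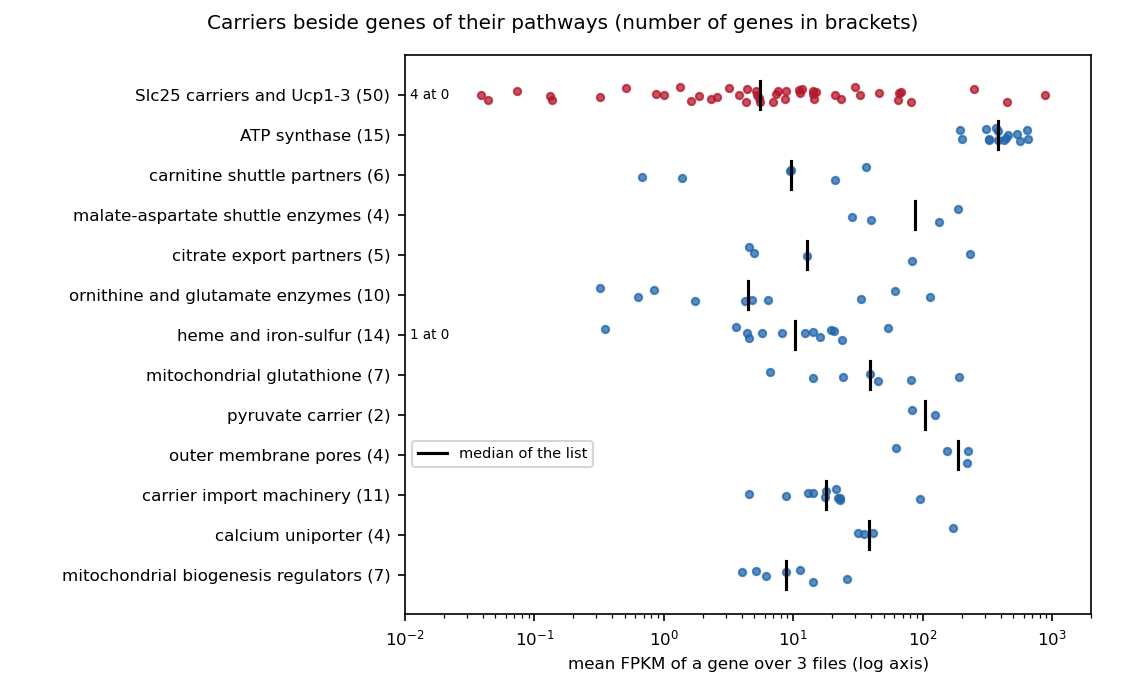
Mean FPKM of single genes (points, log axis) for the 50 carriers (top row) and the 12 lists of partner genes, with the median of each set (bar). Carriers span the widest range, from 4 genes at 0 to 872 FPKM, and the ATP synthase genes sit together between 194 FPKM and 654 FPKM.

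The files were also compared gene by gene, and over all genes tested the median variance between files was 0.677 times that of sampling, where sampling alone gives a median of 0.693. Of 31 carriers with 1 isoform and a mean of 1 FPKM or more, 0 differed between files by a chi-square test of sampling variances with Benjamini-Hochberg adjustment over 8771 genes, where 5 genes (0.0570%) were called in all. At an unadjusted p under 0.05 stood 2 carriers, beside 4.94% of all genes tested. These were Slc25a38 and Slc25a47, whose p-values after that adjustment were 0.799 and 0.994 in the chi-square test. The 19 other carriers, with several isoforms or a lower mean, were not tested.

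A transcript of another gene matched 15 of the 50 carriers along 100 bases or more with an identity of 97% or higher, and the levels of these are uncertain to that extent. The search did not tell copies elsewhere from genes that overlap at the same locus or from shared repeats. For Slc25a5 the match, to the processed pseudogene Gm5560 on another chromosome, covered 71.5% of the transcript. For 13 others, Ucp2, Slc25a10, Slc25a12, Slc25a21, Slc25a23, Slc25a25, Slc25a26, Slc25a33, Slc25a36, Slc25a37, Slc25a42, Slc25a46 and Slc25a51, it covered 3.02% to 14.9%. Among other genes named above, such a match covered over 50% of the transcript of Atp5g1, Iscu, Gpx4, Mpc1, Cpt1b, Hba-a1 and Hba-a2.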

How the data were processed

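The 3 deposited files hold isoform FPKM values with 95% bounds, estimated by the authors with Cufflinks 2.2.1 after TopHat2 2.1.1 and Bowtie2 2.3.4.3, tools named in the submitters' processing notes. These notes name GRCm39, yet coordinates follow GRCm38: all 50 carriers had a start or end within 1000 bases of RefSeq on GRCm38.p6, and 23 the same start base. Per the file headers a coverage signal is also deposited; it was not used. RNA was polyA-selected, per the labels' protocols.

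Isoform FPKM were summed per gene symbol. Sampling variances were read from the authors' 95% bounds, and fragments from FPKM squared over that variance, which was whole within 0.01 for 64.1% to 64.3% of the low isoforms looked at. Ratio intervals are 95% binomial ones (Clopper-Pearson) from fragments pooled over the files, and limits are 3 fragments. Pooling weights the files by depth, whereas the ratios are of unweighted means, so a ratio need not be central in its interval. Recovered fragments were not always whole, so the intervals are approximate. Files were compared by a chi-square test with Benjamini-Hochberg adjustment at 0.05. Since FPKM are not counts, no count model was fitted. All steps used Python 3.11.15, numpy 2.4.6, pandas 2.3.3 and SciPy 1.17.1, and the comparison of files was tested on simulated data. Matches to transcripts of other genes were searched with BLAST+ 2.17.0 among GENCODE M21 transcripts. Alternatives were other thresholds, TPM scaling, the highest isoform, pseudocounts, depth weights and leaving out each file.

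Values per file are given for every carrier at a mean of 10 FPKM or more, for the highest and lowest of each substrate group and for both genes of each paralogue pair, and the other carriers by mean and SD. From each partner list the 2 highest genes and every gene under 1 FPKM in every file are named. Members, substrate groups and lists were chosen with earlier results of these data known. Given beyond this rule are the values per file of Slc25a29, Slc25a30, Slc25a38, Slc25a44 and Slc25a47, and the genes Cpt1b, Cpt1c, Timm22, Atp5c1, Atp5k and Atp5g1, chosen after their values were seen. Vdac3, Tspo and the partner genes named only for a match to another transcript are also beyond it. The values of 1 carrier and 1 marker gene, included in counts and sums, are not reported here.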

Additional observations from a re-analysis of the deposited data

How the results depend on the processing

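Of 19 carriers at a mean of 10 FPKM or more, 12 reached 20 FPKM, and 30 carriers reached 10 once values were rescaled to TPM. TPM scaling raises every gene of a file by a common factor. The shares of all genes at these settings are not given here, so the counts describe the carriers only. The median of 5.48 FPKM was 12.8 in TPM, 4.68 by the highest isoform of each gene and 9.97 over carriers at a mean of 1 FPKM or more. On summed log2(FPKM + 1), the shares were 18.9% for the adenine nucleotide group, 5.93% for phosphate and 8.18% for uncoupling. Without the highest member of each group of 2 or more they were 17.3%, 52.5% and 0.638%, so the first and last of these shares rest on Slc25a5 and Ucp2. By the highest isoform phosphate held 20.65%. On summed log2(FPKM + 1) the order of the groups changed. Cofactor (14.95%), amino acid (13.9%) and di- and tricarboxylate carriers (9.79%) then stood above phosphate and uncoupling. Isoforms held apart by the authors' 95% bounds numbered 1 instead of 3. Leaving out 1 file gave 37 to 38 carriers at 1 FPKM or more, 19 to 20 at 10 FPKM or more, a median of 5.13 to 5.73 FPKM, group shares of 46.6% to 47.1% (adenine nucleotide), 20.5% to 20.6% (phosphate) and 11.5% to 11.7% (uncoupling), a ratio of Slc25a5 to Slc25a4 of 13.5 to 14.0, 4 genes with a leading isoform and 82 to 83 partner genes. Of 161 other alternatives, 138 stayed within the SD between files (group shares) or the 95% counting interval (ratios), and 23 moved out of it. Of the ratios, 0 crossed 1, and the order of the groups is not part of this count. Some ratios within their wide intervals still moved by over 1.5 times: without 1 file, that of Slc25a4 to Slc25a31 was 309.9 to 953, that of Slc25a22 to Slc25a18 as low as 45.8 and that of Ucp2 to Ucp3 as low as 4266. No paired analysis was possible because the series has 1 group. Replicate 3, with 1.24e+06 fragments, limits the genes under 1 FPKM.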
